A study of Mus musculus with 4 samples.

Results

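The 4 Hox clusters of the mouse were examined in whole-genome bisulfite data from splenic T cells, in which the share of reads with an unconverted cytosine gives the methylation level at each CpG position. The set held 38 Hox genes of 49997 RefSeq genes placed on a chromosome. A region was taken for each cluster, from 5 kb before its first to 5 kb after its last of these genes by RefSeq bounds on mm10. The regions were chr6:52157417-52265880 for Hoxa (10 genes), chr11:96189316-96373254 for Hoxb (10), chr15:102916131-103041856 for Hoxc (9) and chr2:74663225-74770142 for Hoxd (9), together 525 kb. All mice were of the NOD strain, which becomes diabetic through autoimmunity. Mice received PBS (the control) or the recombinant proteins OX40L and Jagged-1 (OX40L-JAG1) once a week for 3 weeks from 6 weeks of age, and cells were taken at 10 weeks. CD4+CD25- effector T cells (Teff) and CD4+CD25hi regulatory T cells (Treg) were sorted from the spleen of each, giving 4 libraries with 1 library per group. Control mice gave PBS Teff and PBS Treg and treated mice gave OX40L-JAG1 Teff and OX40L-JAG1 Treg, and 4 values in a row follow this order throughout. How many animals went into a library is not given in the sources used here. Each test therefore compares the reads of 2 libraries and not cell types or treatments, and every interval covers counting error only.

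Hox genes encode homeodomain transcription factors that give cells their position along the body axis. They lie in order along each cluster, from paralog group 1 at the 3′ end to group 13 at the 5′ end, and in cells that do not use them the clusters are typically held silent by Polycomb proteins in wide tracts with little DNA methylation, called canyons or valleys. In blood, several Hoxa and Hoxb genes act in stem and progenitor cells and are turned down as cells mature.

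Reads fell on 10575 listed CpG positions in the 4 regions, of which 1284 had at least 5 reads in all 4 libraries (12.1%, against 18.9% of the 25374149 positions of the whole table). These kept positions had a median of 9 to 14 reads per library, and they filled 95 windows of 1 kb with at least 5 kept positions each, out of 314531 such windows in the genome. Counted on its own, a library covered 3246 to 6540 Hox positions, and the 2 Treg libraries were the shallower of each pair. The sorted populations carried the marks of their labels: Foxp3, the lineage factor of Treg cells, had gene-body levels of 89.1%, 51.7%, 80.7% and 58.2%, lower in each Treg library than in its Teff partner. Ctla4, Ikzf2 and Il2ra were likewise lower in both Treg libraries than in the Teff library of the same treatment.

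The Hox clusters were weakly methylated in a genome that was otherwise heavily methylated. Over the kept positions the level was 37.9% (95% Wilson interval 37.4 to 38.5) in PBS Teff, 37.8% (37.2 to 38.5) in PBS Treg, 37.2% (36.5 to 37.8) in OX40L-JAG1 Teff and 36.8% (36.1 to 37.5) in OX40L-JAG1 Treg. The genome as a whole stood at 85.2%, 84.9%, 81.6% and 82.2% in the same order. The 4 libraries thus gave the Hox clusters values within about a point of one another, far below the genome level in each. Each library pools many cells, so an intermediate level cannot tell a share of cells from a share of alleles. Of the 95 Hox windows, 20% had a mean level over the libraries of under 10% and 43.2% lay from 10 to 50%. Over all windows these shares were 0.879% and 3.16%.

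The clusters differed among themselves. Hoxc and Hoxd were low nearly throughout, with 19.4% and 21.3% in PBS Teff and 18.9% to 21.5% over the other libraries for the 2 clusters. Hoxa stood at 38.9% in PBS Teff and Hoxb at 53.0%, and the other 3 libraries ranged from 38.1 to 40.1% for Hoxa and from 51.8 to 52.3% for Hoxb. The Hoxa level depends on the weighting by reads, because the mean over positions was 51.2% in PBS Teff. All 14 Hoxc windows and 15 of 17 Hoxd windows were under 50% in all 4 libraries, against 9 of 20 in Hoxa and 20 of 44 in Hoxb. A window seldom changed side between libraries: in 93 of 95 Hox windows all 4 libraries lay on the same side of 50%, and the exceptions numbered 2.

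**Figure D1:**
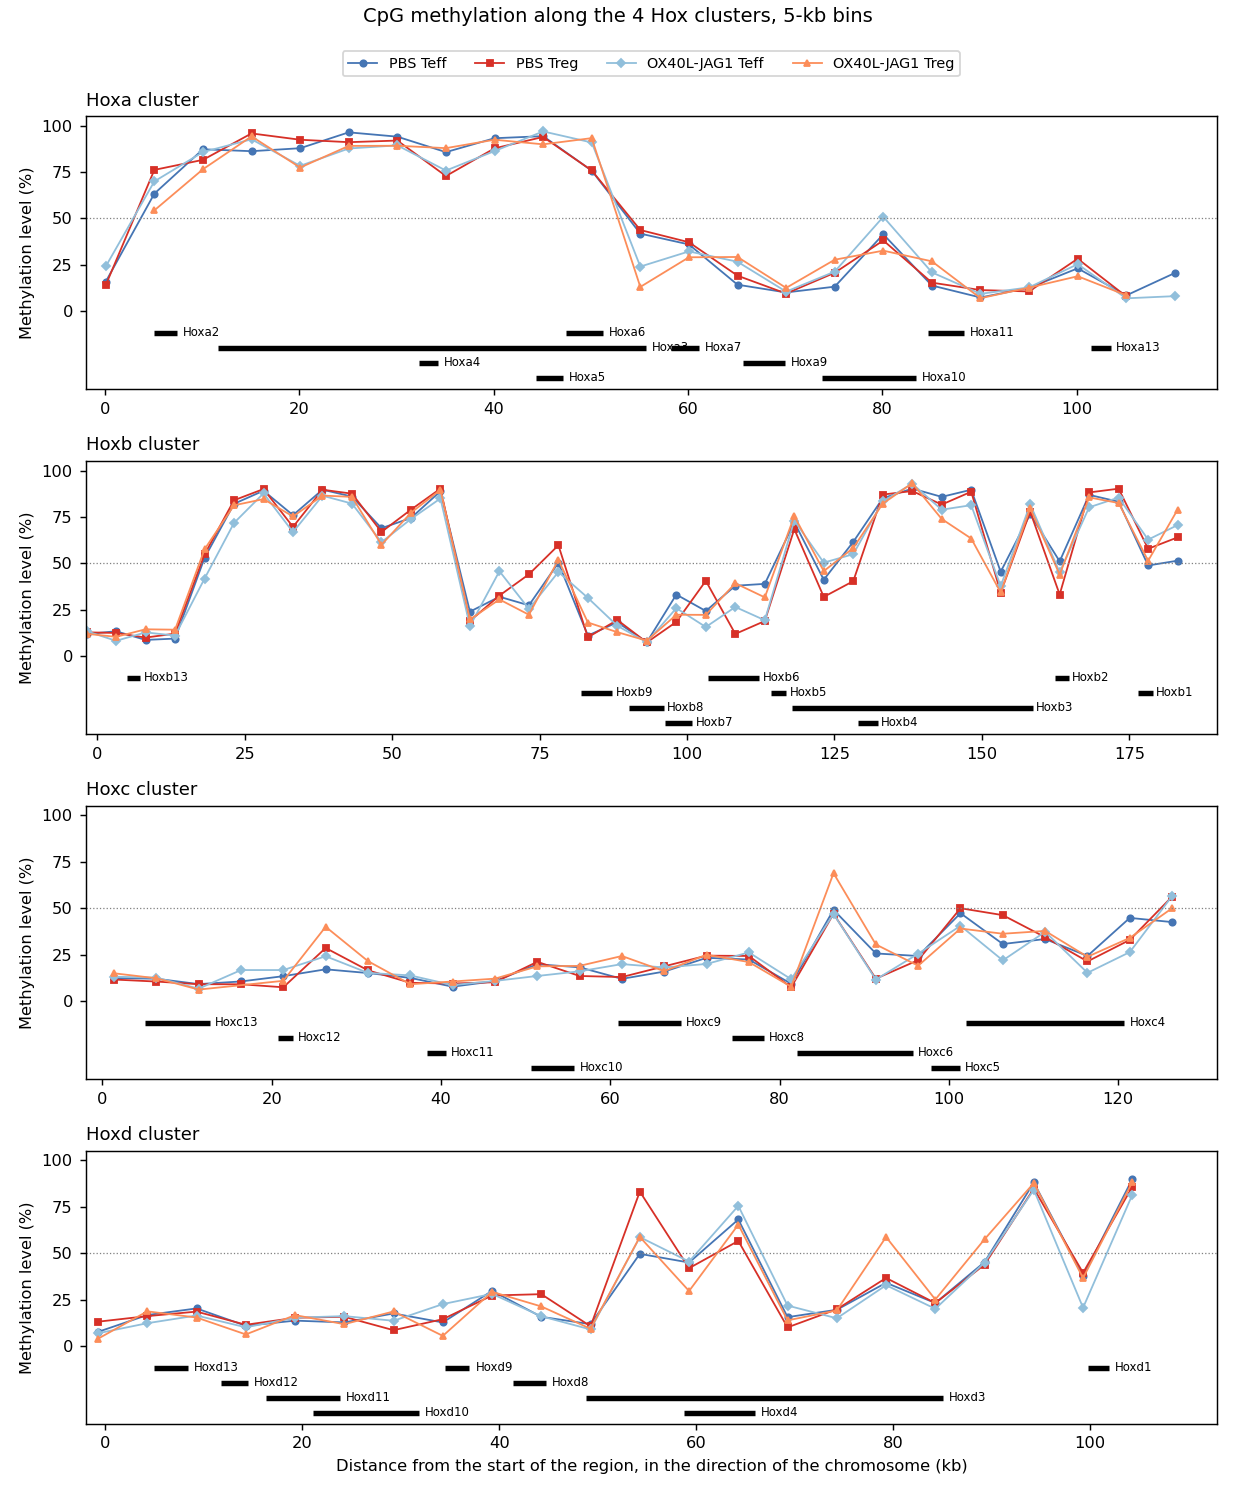
Methylation level (percent of reads) in 5-kb bins along each cluster, on each library's own positions, by distance in kb from the start of the region; black bars are the gene bodies by RefSeq bounds. The 4 lines run close together: Hoxa is high over its 3′ genes and low from Hoxa7 on, Hoxb alternates, Hoxc is low nearly throughout, and Hoxd rises over Hoxd4 and Hoxd1.

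The level followed the order of the genes in Hoxa. Counted on each library's own positions with at least 5 reads, 29 of the 38 gene bodies had a mean level under 50% and 9 a level of 50% or more. The 9 were Hoxa2, Hoxa3, Hoxa4, Hoxa5 and Hoxa6, then Hoxb1, Hoxb3 and Hoxb4, and Hoxd1. In paralog groups 6 to 13, the more 5′ genes, 23 of 24 members were low and Hoxa6 was the exception. In groups 1 to 5 all 4 Hoxa members were high, 3 of 5 in Hoxb, 1 of 3 in Hoxd and 0 of 2 in Hoxc. Bodies overlap by the RefSeq bounds used (Hoxa3 spans Hoxa4, Hoxa5 and Hoxa6, Hoxb3 spans Hoxb4, and Hoxd3 spans Hoxd4), so these members share positions and are not separate measurements. On the stricter basis of at least 5 kept positions, 26 members had a value, with a median of 26.0% and 20 of them under 50%, while 10 members had 1 to 4 kept positions and 2 (Hoxa13 and Hoxd12) had 0. Among all protein-coding genes measured in this way the median was 86.0%, and 4.62% were under 50%.

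Within Hoxa the highest and lowest bodies stood far apart. Hoxa5, which is needed for lung development, had levels of 95.4%, 94.7%, 98.5% and 91.2% over 19 kept positions. Hoxa3, a regulator of thymus and pharyngeal arch development, had 91.4%, 88.9%, 87.8% and 85.9% over 81 positions. Both bodies were thus highly methylated in each of the 4 libraries. Hoxa7 had 30.3%, 26.1%, 27.6% and 24.8% over 34 positions. Hoxa10, which with Hoxa9 is used by blood progenitors, had 39.6%, 34.1%, 36.9% and 34.2% over 31 positions. The step from high to low lay between Hoxa6 and Hoxa7. Hoxa13, at the 5′ end, had no kept position, and on own positions it read 8.3%, 2.2%, 2.5% and 8.0%.

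Hoxb members also ranged widely, but without a single step. Hoxb4, a gene known for expanding blood stem cells when overexpressed, had 85.2%, 84.6%, 83.2% and 80.6% over 29 positions, and Hoxb3, which contains it, had 71.1%, 73.0%, 69.9% and 71.3% over 141. Both were high in all 4 libraries. Hoxb8 had 7.5%, 7.7%, 6.9% and 8.4% over 64 positions and Hoxb5 had 6.3%, 7.8%, 5.9% and 12.7% over 21. Hoxb2 lies between the methylated Hoxb3 and Hoxb1, and was low at 31.6%, 17.4%, 25.4% and 36.1% over 7 positions. Hoxb1, the hindbrain gene at the 3′ end, had 71.8%, 61.7%, 73.8% and 60.2% over 12.

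In Hoxc and Hoxd even the most methylated members with 5 or more kept positions stayed under 50%. Hoxc4 led Hoxc with 40.4%, 39.3%, 30.6% and 28.5% over 28 positions, followed by Hoxc6 with 26.4%, 25.3%, 25.5% and 33.2% over 25. Hoxc13, which acts in hair and nails, was lowest with 7.2%, 6.7%, 3.8% and 6.0% over 13, and Hoxc11 had 4.4%, 9.0%, 7.4% and 10.8% over 14. Hoxc13 and Hoxc11 were thus lower than Hoxc4 and Hoxc6 in each library. Hoxd8 had 13.8%, 28.0%, 27.8% and 29.4% over only 7 positions, and Hoxd3 had 27.5%, 24.4%, 24.6% and 22.2% over 57. Hoxd13, a gene of digit formation, had 9.4%, 5.9%, 11.1% and 9.9% over 8, and Hoxd10 had 13.9%, 11.4%, 13% and 17.1% over 34. Hoxd1 had 2 kept positions, and its own-position levels of 54.2%, 70.6%, 26.4% and 77.1% came from 8 to 51 different positions per library, so that spread mixes positions with libraries.

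**Figure D2:**
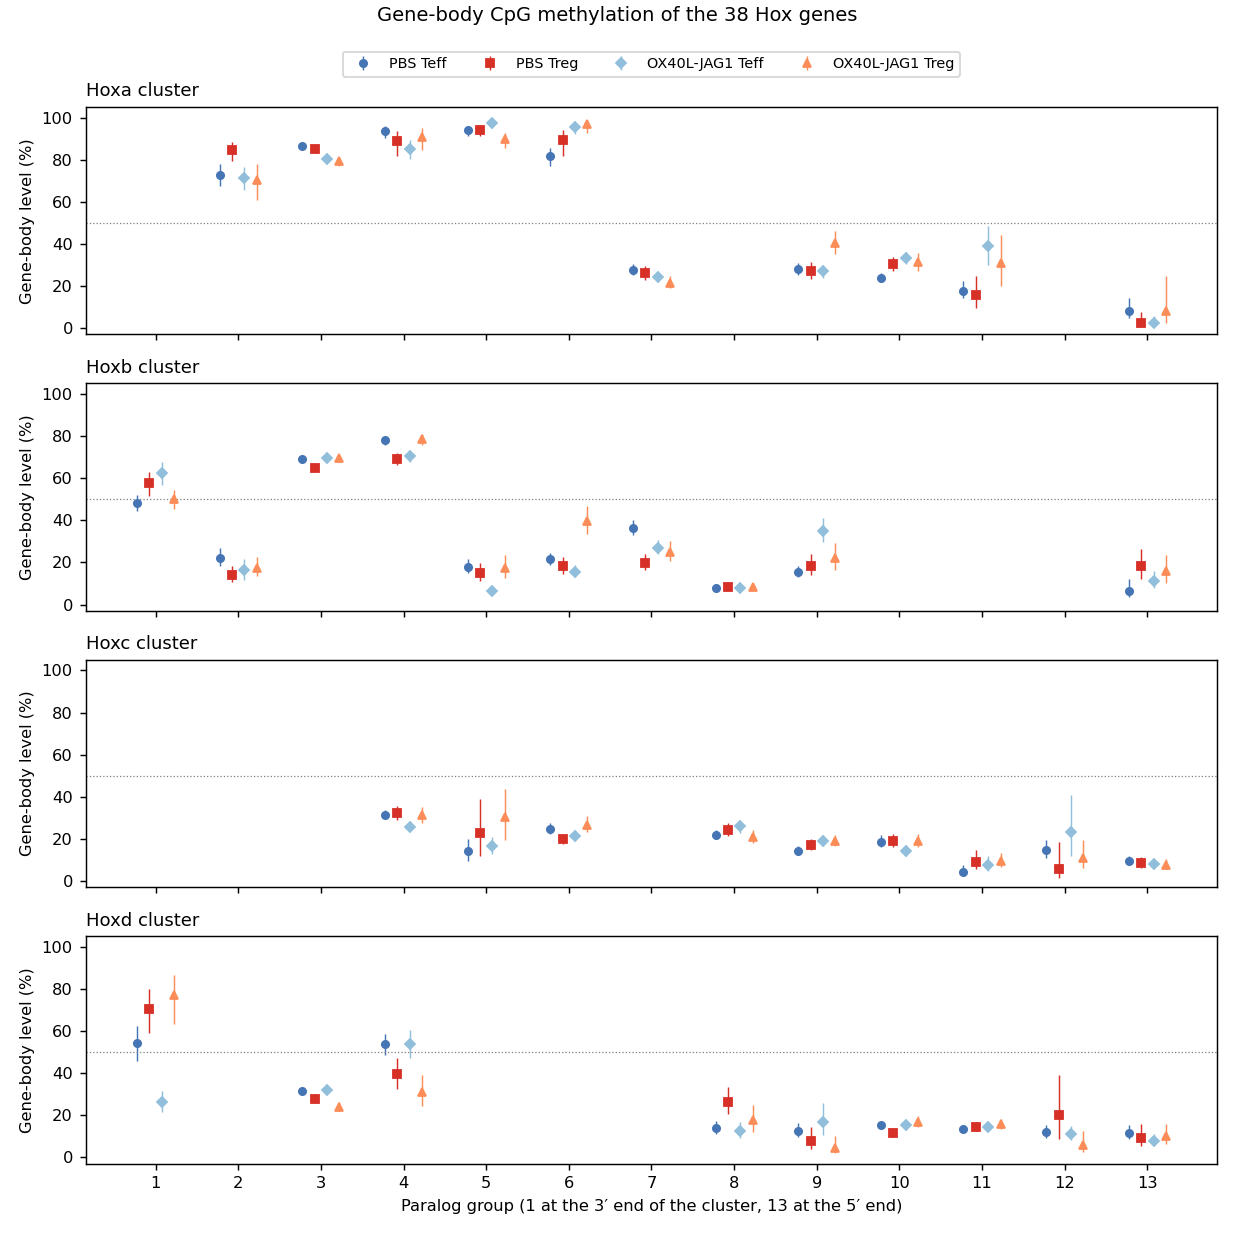
Gene-body methylation level (percent) of the 38 Hox genes by paralog group, on each library's own positions; bars are 95% Wilson intervals, for counting error only. Hoxa2 to Hoxa6 lie above 70% in all 4 libraries, Hoxc stays under 50% throughout, and 23 of 24 members of groups 6 to 13 have a mean under 50%.

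Promoters also ranged from low to almost full methylation, but they did not always follow their gene bodies. RefSeq promoter sequences (GRCm38.p6) matched 22 of the 38 members. The 5 shown are Hoxd3, the 1 member promoter with at least 5 kept positions, and 4 chosen after their values were seen because they show the extremes of methylation. Each run is the 250 bases before the gene's start, 5′ to 3′ on the gene's strand, and capitals mark the CG pairs at which the table lists a position.
Hoxa5 (chr6:52204588-52204837, minus strand): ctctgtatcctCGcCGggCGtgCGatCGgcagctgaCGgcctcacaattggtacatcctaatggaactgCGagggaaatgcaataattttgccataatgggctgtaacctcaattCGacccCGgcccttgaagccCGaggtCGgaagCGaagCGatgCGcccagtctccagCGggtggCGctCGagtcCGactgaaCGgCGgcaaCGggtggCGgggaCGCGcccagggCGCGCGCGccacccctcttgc
Hoxa3 (chr6:52213068-52213317, minus strand): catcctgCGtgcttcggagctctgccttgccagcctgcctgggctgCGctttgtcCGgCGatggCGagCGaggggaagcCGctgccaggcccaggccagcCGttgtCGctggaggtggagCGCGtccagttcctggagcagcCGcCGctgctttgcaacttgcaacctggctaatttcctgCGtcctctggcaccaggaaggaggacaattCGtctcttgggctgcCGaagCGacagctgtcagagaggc
Hoxa11 (chr6:52245811-52246060, minus strand): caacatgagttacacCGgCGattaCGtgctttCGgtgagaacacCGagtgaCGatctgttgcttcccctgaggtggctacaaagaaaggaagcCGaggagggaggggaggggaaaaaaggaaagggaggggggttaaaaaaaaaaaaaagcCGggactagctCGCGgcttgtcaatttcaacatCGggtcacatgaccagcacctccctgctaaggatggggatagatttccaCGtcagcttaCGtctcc
Hoxd3 (chr2:74711743-74711992, plus strand): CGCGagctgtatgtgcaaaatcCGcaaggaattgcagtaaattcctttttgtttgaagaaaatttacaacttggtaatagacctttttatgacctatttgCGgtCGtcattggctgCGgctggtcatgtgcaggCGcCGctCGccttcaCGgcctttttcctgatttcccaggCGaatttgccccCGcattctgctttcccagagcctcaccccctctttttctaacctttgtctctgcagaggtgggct
Hoxd1 (chr2:74762730-74762979, plus strand): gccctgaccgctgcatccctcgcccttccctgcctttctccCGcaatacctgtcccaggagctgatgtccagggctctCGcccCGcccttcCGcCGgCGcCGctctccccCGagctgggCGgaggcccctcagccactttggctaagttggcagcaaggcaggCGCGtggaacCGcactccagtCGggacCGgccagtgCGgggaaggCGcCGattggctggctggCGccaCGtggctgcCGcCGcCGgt
All 5 are rich in CG, with 28 pairs in the Hoxa5 stretch, 18 in Hoxa3, 13 in Hoxa11, 12 in Hoxd3 and 24 in Hoxd1. The levels that follow take in these bases and the 50 after the start.

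The Hoxa5 promoter was almost fully methylated. Its level was 92.9% (86.1 to 96.5) in PBS Treg, from 99 reads at 17 positions, 100% (92.1 to 100) in OX40L-JAG1 Teff, from 45 reads at 8, and 91% (83.3 to 95.4) in OX40L-JAG1 Treg, from 89 reads at 15. PBS Teff had no position with 5 reads there, and no position was covered in all 4 libraries. Among promoters of any gene with at least 20 CG pairs and 5 covered positions, 8 of 1846 reached 80% in PBS Treg (0.433%), 17 of 2631 in OX40L-JAG1 Teff (0.646%) and 10 of 1319 in OX40L-JAG1 Treg (0.758%). Hoxa3, whose start lies on the 5′ side of the methylated block, read 0.806% (0.142 to 4.43) in OX40L-JAG1 Teff, the library that covered it. Hoxa11, a kidney and forelimb gene, read 1.04%, 5.88% and 1.52% in the libraries other than PBS Treg. Hoxd3 read 5.91%, 5.39%, 4.43% and 5.37%. Hoxd1 read 5.88% in control Teff cells and 3.85% in treated ones, below its gene body in both. Of these 5 promoters Hoxa5 alone was methylated. Among the other member promoters Hoxa9 had a higher level than its surroundings, 60.4%, 66.7%, 60% and 72.4%, from only 3 positions, and Hoxa7 read 63.4%, 100%, 55.3% and 20% from 41, 5, 38 and 5 reads. Some other promoters were intermediate on few reads: Hoxd4 at 25.6%, 16.7%, 40% and 40% from 39, 18, 15 and 5 reads, Hoxa2 at 30%, 48.6% and 20% in the libraries other than PBS Treg from 15 to 35 reads, and, among control cells, Hoxb4 at 0% in Teff from 16 reads and 43.3% in Treg from 30.

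Strict canyons were almost absent from the clusters at this coverage. A canyon was defined on kept positions as a run of CpG sites in which every 5 consecutive sites pooled to under 10%, with gaps of at most 2 kb and a length of at least 3.5 kb. The genome held 58 to 61 of them per library. The Hox clusters held 1, over Hoxc13 in OX40L-JAG1 Teff (chr15:102924593-102928156, 3564 bp, 12 sites and 306 reads at 3.27%), and 0 in the other 3 libraries. The same stretch was present there at 3420 bp, just under the minimum, with 5.51% in PBS Teff and with 4.47% and 5.33% in the control and treated Treg libraries. With a minimum of 1 kb there were 11, 11, 9 and 12 Hox canyons. One over Hoxa9, at chr6:52224625-52226547, had the same edges in all 4 libraries, with 3.36%, 1.5%, 1.67% and 1.54%. Others lay at Hoxb8, Hoxc6 and between Hoxc11 and Hoxc10 in all 4.

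Wide low tracts were mapped with a looser definition, chosen after the data were seen. A low run was a stretch in which the running level of 21 CpG sites stayed under 50% on the library's own positions. It was broken at gaps of over 5 kb without a position of at least 5 reads. Hoxc held the longest low run of the genome in 3 of the 4 libraries: 91 kb in PBS Teff (rank 1 of 32608 low runs), 107 kb in PBS Treg (1 of 22347) and 91.6 kb in OX40L-JAG1 Teff (1 of 30805). It began at chr15:102909351 in PBS Teff, upstream of Hoxc13, and ended at 103000316 in Hoxc6, and in PBS Treg it went on to Hoxc5. In OX40L-JAG1 Treg the tract came in parts of 21.5 and 65.1 kb, the second at rank 3 of 19506. The break between these parts was a gap in which no position had at least 5 reads, from 102930260 to 102936004. On positions read in all 4 libraries the run measured 87.6, 65.1, 91.7 and 90.0 kb, so the order of the libraries depends on the positions used. From 94.6 to 96.8% of Hoxc sites lay in low runs, against 3.47 to 4.80% of sites in the genome.

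Hoxd came next in length. Its low run measured 68.3 kb in PBS Teff (rank 2), 66.7 kb in PBS Treg (rank 4), 66.8 kb in OX40L-JAG1 Teff (rank 3) and 77.4 kb in OX40L-JAG1 Treg (rank 1). It started at chr2:74647637 in PBS Teff and within 1505 bp of one another in all 4 libraries, took in Evx2, a homeobox gene beside the cluster, and ran to Hoxd3, or in OX40L-JAG1 Treg to Hoxd4. Past Hoxd3 the cluster alternated, and from Hoxd1 outwards it was methylated at 83.2 to 87.3%. Low runs held 82.6 to 89.3% of Hoxd sites.

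Hoxa and Hoxb were split into low and methylated blocks. In PBS Teff a methylated block of 43.8 kb at 88.9% ran from Hoxa2 to Hoxa6 (chr6:52164731-52208539), and in OX40L-JAG1 Treg a block of 49.6 kb at 83.1% covered the same genes. Towards the 5′ end a low run over Hoxa10, Hoxa11 and Hoxa13 measured 32.6, 36.4, 32.5 and 45.9 kb. In the last of these it also took in part of Hoxa9. On positions read in all 4 libraries the longest low run of Hoxa measured 26.4, 26.4, 15.8 and 15.1 kb. With reads at those positions also thinned to the lowest library it measured 15.1 to 15.8 kb. This longest run need not be the one over Hoxa10, Hoxa11 and Hoxa13. In Hoxb, Hoxb13 sat in a low run of its own of 39.2, 37.9, 39.7 and 38 kb, with start sites within 352 bp and end sites within 1784 bp of one another over the libraries. The stretch between Hoxb13 and Hoxb9 opened with a methylated block, 42.8 kb at 80.9% in PBS Teff (chr11:96207520-96250305). Hoxb9 to Hoxb5 then lay mostly in low runs. From Hoxb4 to Hoxb1 methylated blocks of up to 20 kb in PBS Teff were interrupted by low islands of 2.30 kb at Hoxb4, 2.47 kb at Hoxb2 and 0.88 kb at Hoxb1. Low runs held 50.7 to 59.8% of Hoxa sites and 51.7 to 55.3% of Hoxb sites.

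**Figure D3:**
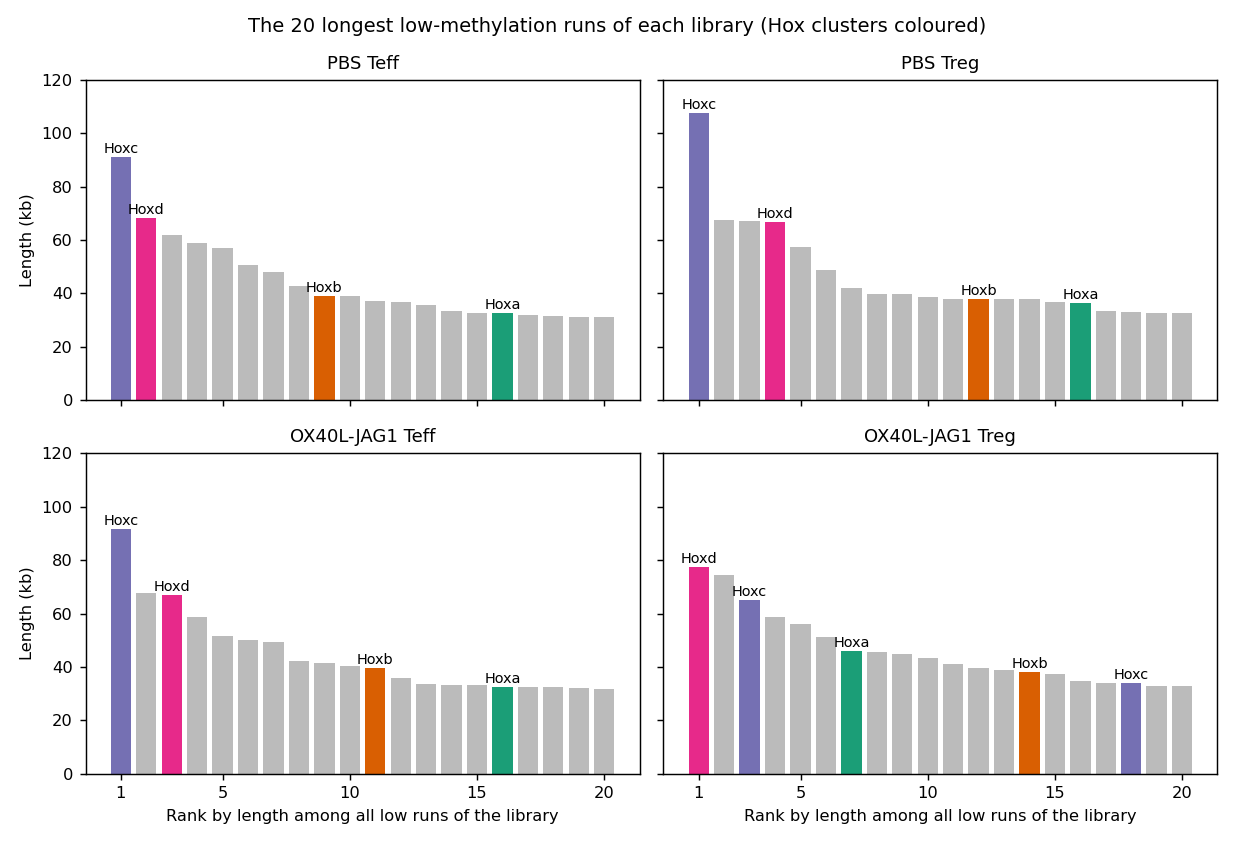
Length in kb of the 20 longest low runs of each library, ranked; coloured bars overlap a Hox cluster and grey bars lie elsewhere in the genome. Hoxc ranks 1 in 3 libraries and Hoxd ranks 1 in OX40L-JAG1 Treg, where Hoxc is split.

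The comparison of Treg with Teff cells asks whether the clusters differ between the cell types. No Hox window was called in either pair. In PBS, 0 of 95 Hox windows were called at an adjusted p under 0.05 (Fisher's exact test per window, Benjamini-Hochberg over all windows) with a difference of at least 20 points, against 0.279% of all windows. After OX40L-JAG1, 0 of 95 were called, against 0.114% of all windows. Both background shares amount to less than 1 window of 95, so a count of 0 does not set the clusters apart. At an unadjusted p under 0.05 there were 4 Hox windows in PBS and 12 after OX40L-JAG1 (5.73% and 5.3% of all windows). Over all kept positions Treg minus Teff was -0.10 points (95% Newcombe interval -0.96 to 0.76) in PBS and -0.36 points (-1.28 to 0.56) after OX40L-JAG1, and the genome gave -0.29 and 0.55 points. Both Hox intervals include 0. A fit of cell type and treatment over the 4 libraries, added after the data were seen (limma, 1 residual degree of freedom), called 0 windows in the whole genome (0%) for either factor, so its 0 of 95 Hox windows carries no information. At an unadjusted p under 0.05 it gave 3 Hox windows for cell type (5.57% of all windows) and 3 for treatment (11.1%).

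One window passed the adjusted p in both pairs but not the minimum of 20 points. By the adjusted p alone 0.47% of all windows passed in PBS and 0.189% after OX40L-JAG1, and with at least 10 points 0.421% and 0.175% did, so that 1 of 95 Hox windows lay near these shares in each pair. The window was chr6:52165001-52166000, between Hoxa2 and Hoxa3 and in part within the noncoding gene Hoxaas2, and lay inside a methylated block in each library. Its level was 80.7%, 65.4%, 85.9% and 68.7%, from 228 to 305 reads at 12 positions. Both Treg libraries were lower than both Teff libraries. The difference was -15.30 points (-22.9 to -7.71; Fisher's exact test, adjusted p = 0.0236) in PBS and -17.19 points (-24.5 to -9.73; adjusted p = 0.00881) after OX40L-JAG1, and 9 of the 12 positions were lower in Treg in both pairs. The difference between the pairs was -1.89 points, which the interaction test did not call. With reads thinned to the shallowest library the adjusted p rose to 0.519 in PBS and 0.071 after OX40L-JAG1, at -13.66 and -16.59 points. With positions of at least 10 reads it was 0.108 after OX40L-JAG1 (Fisher's exact test, -14.30 points), and with all read counts divided by 3 it was 1 in both pairs, so that the adjusted p was lost in 5 of 12 alternatives. At 10 points or more in both pairs, 4 of 95 Hox windows were lower in Treg and 0 higher. Of all 314531 windows 1768 were lower and 1918 higher. Besides the window above, the other 3 lay at Hoxb8, Hoxb1 and Hoxc4, and none of them had an adjusted p under 0.05. Windows with a mean of 10 to 80% numbered 55 of 95 in Hox and 68922 of 314531 in all. Over all windows of that class the median absolute difference in PBS was 4.28 points, against 2.60 over every class. Whether the Hox split goes with these levels was not tested. With 5-kb flanks, 18 marker genes of other cell types held 26 (B), 6 (CD8 T and NK), 23 (myeloid) and 46 (progenitor) windows. Among these, called windows lay at Spi1, a myeloid and B cell factor (2 in each pair), and at Kit, a stem cell factor receptor (1 after OX40L-JAG1). Of all windows 0.279% were called in PBS and 0.114% after OX40L-JAG1. The Spi1 body was higher in both Treg libraries at 71.4%, 80.8%, 73.4% and 79.8%, but the other myeloid markers with 5 kept positions did not follow it: Itgam read 88.1%, 88.0%, 85.2% and 86.7% and Csf1r 93.7%, 90.9%, 90% and 89.7%. Cd79a, a B cell marker, was lower in both Treg libraries at 98.2%, 82.0%, 93.9% and 82.4% over 4 positions. The part of these genes' cell types in the Hox differences was not tested. The Hoxb1 window (chr11:96367001-96368000) read 71.8%, 61.7%, 73.8% and 60.2%. It lies inside the gene body and repeats the body levels over 12 kept positions given above, so it is not a separate measurement. On each library's own positions the Hoxb1 body read 48.3%, 57.5%, 62.4% and 50%, with PBS Treg above PBS Teff.

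The comparison of OX40L-JAG1 with PBS asks whether the treatment goes with a change in the clusters. The pooled difference was smaller over the Hox clusters than over the genome in both cell types, and the gap between them was not tested. Over the genome OX40L-JAG1 minus PBS was -3.58 points in Teff and -2.74 points in Treg. Over Hox positions OX40L-JAG1 minus PBS was -0.77 points (-1.60 to 0.07) in Teff and -1.02 points (-1.97 to -0.08) in Treg. The median over windows was -1.29 points in Hox against -2.82 over all windows in Teff, and 1.09 against -2.14 in Treg. In Treg the pooled Hox difference and the median over Hox windows thus had opposite signs. Among windows with a mean under 50% the median was -0.96 points in Hox and -0.41 over all in Teff, and 1.86 and -0.18 in Treg. No Hox window of 95 was called in Teff (0.559% of all windows were) or in Treg (0.101%), and 15 and 5 had an unadjusted p under 0.05 (15.8% and 9.48% of all). The test of the interaction called 0 of 95, against 0.0108% of all windows, with 11 at an unadjusted p under 0.05 (4.98% of all).

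Without the 20-point minimum, 4 Hox windows passed the adjusted p in Teff (3.04% of all windows did) and 0 in Treg (0.336%). With a minimum of 10 points there were 2 in Teff (2% of all windows) and 0 in Treg (0.26%). The window at Hoxc9 (chr15:102978001-102979000) read 9.30%, 17.6%, 29.2% and 28.5% over 9 positions. OX40L-JAG1 minus PBS was 19.90 points (8.88 to 29.9; Fisher's exact test, adjusted p = 0.0304) in Teff, just under the minimum, and 10.90 points (-1.41 to 21.6; adjusted p = 0.641) in Treg. The deepest Hox window, chr6:52229001-52230000 between Hoxa9 and Hoxa10, read 2.67%, 2.79%, 5.53% and 5.65%, from 1221 to 1874 reads at 32 positions. It rose by 2.86 points in Teff (1.54 to 4.26; Fisher's exact test, adjusted p = 0.00325), and in Treg the difference was also 2.86 points (1.28 to 4.50; adjusted p = 0.0785). The 2 others were lower in OX40L-JAG1 Teff. The window before Hoxd13 (chr2:74667001-74668000) read 22.2%, 14.9%, 9.66% and 17.4%, a fall in Teff of 12.56 points (Fisher's exact test, adjusted p = 0.0383). The window chr11:96359001-96360000, between Hoxb2 and Hoxb1, read 91.6%, 91.5%, 84.0% and 87.3%, a fall in Teff of 7.63 points (Fisher's exact test, adjusted p = 0.0172). In this comparison 8972 of the 9555 windows that passed the adjusted p in the whole genome were lower, while the Hox windows split 2 to 2. The windows at Hoxc9, between Hoxa9 and Hoxa10 and before Hoxd13 were under 50% in each library. Among all windows with a mean under 50%, passing or not, 53.1% were lower, against 73.9% of windows at any level. The split therefore does not set the clusters apart.

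**Figure D4:**
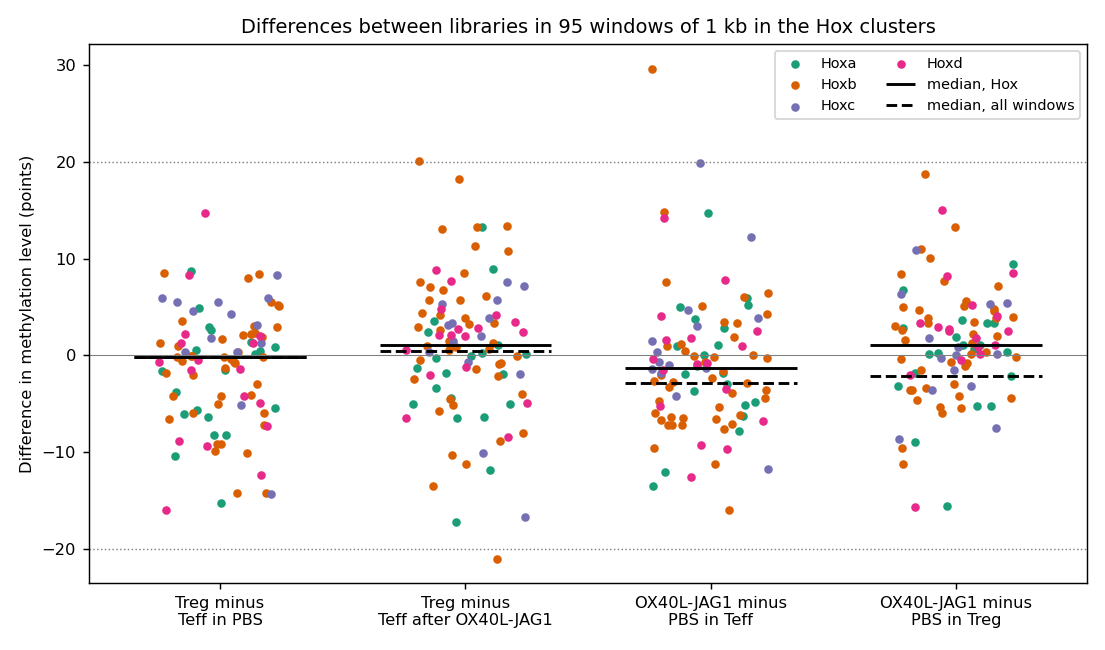
Difference in methylation level (points) in each of the 95 Hox windows for the 4 comparisons, coloured by cluster; solid and dashed lines are the medians over Hox and over all windows, and dotted lines mark the 20-point minimum. Most points lie within 10 points of 0, and in the treatment comparisons the Hox median lies above that of all windows.

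The differences that could be called were limited by depth and by the 20-point minimum. In simulated reads at these depths, windows lowered by 20 points were called in 26 to 36% of cases over the 4 comparisons. A call needs an observed difference of at least 20 points, so a true fall of 20 points can miss it at any depth. The simulation drew reads with counting error only and held no other variation between libraries. Windows lowered by 50 points were called in 90 to 98%. The simulated windows were methylated ones from the whole genome, so these shares need not hold for weakly methylated Hox windows. Of the 95 Hox windows, 95 differed by less than 20 points in Treg versus Teff in PBS and 93 after OX40L-JAG1. For OX40L-JAG1 versus PBS these counts were 94 among Teff and 95 among Treg cells. The median range over the 4 libraries was 7.37 points in Hox windows and 7.26 over all windows. A window at Hoxb3 (chr11:96310001-96311000) read 51%, 59.4%, 80.7% and 69.4%, the widest Hox difference in Teff at 29.66 points, but it held 31 to 51 reads per library and its adjusted p was 0.137.

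Genes that act with or on the Hox clusters looked different from them. The Hox cofactors, the Pbx, Meis and Pknox homeodomain proteins that bind DNA beside Hox proteins, had a median gene-body level of 80.7% over 8 of 9 genes with enough kept positions, and 0 were under 50%. Polycomb genes had a median of 88.2% (1 of 14 under 50%) and trithorax genes, which counter Polycomb, 89.5% (1 of 8). These medians resembled the 86.0% of all protein-coding genes. Other developmental regulators, such as the Dlx, Nkx, Pax and Tbx genes, were low like the Hox genes, with a median of 17.1% and 31 of 35 under 50%. A window was called in 1 gene of these lists, Jarid2 of the Polycomb group, which had 2 in OX40L-JAG1 versus PBS in Teff. With 5-kb flanks the lists held 157 windows for cofactors, 127 for Polycomb, 67 for trithorax and 203 for other regulators. In that comparison 0.559% of all windows were called, so 2 called windows do not set these lists apart.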

How the data were processed

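Whole-genome bisulfite libraries were made from genomic DNA of the 4 sorted populations. The authors trimmed reads with Trimmomatic and aligned them to mm10 with Bismark, per the submitters' processing notes; versions and removal of duplicates are not given in the sources used here. Per CpG position and library, the deposited table gives the count of reads and the count of methylated reads, per the file headers. It also holds the authors' fraction of methylated reads, which runs from 0 to 1 and was not needed further. In the table a count is 0 or at least 5, so lower coverage is not seen. Libraries held 208402911 reads for PBS Teff and 131555634 for PBS Treg, and after treatment 159291553 for Teff and 103584075 for Treg.

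Levels pool methylated over all reads of the positions named. Windows of 1 kb with at least 5 positions of at least 5 reads in all 4 libraries were tested over the whole genome with a two-sided Fisher's exact test and Benjamini-Hochberg adjustment, and the interaction with a logistic Wald test with 0.5 added per cell (NumPy 2.4.6, pandas 2.3.3, SciPy 1.17.1, Numba 0.67.0). Wilson and Newcombe intervals are at 95%. With 1 library per group the tests compare libraries, and reads of a window are not independent cells. An additive fit of cell type and treatment (limma 3.58.1, log2 of methylated over unmethylated reads, 0.5 added to each) has 1 residual degree of freedom. The 2 strands of a CpG were merged for canyons and low runs. Scripts were tested on simulated data. The genes, lists and tests were chosen with earlier results of these data known. Genes described in full were the 2 highest and 2 lowest per cluster by gene-body level with at least 5 kept positions, those at or within 5 kb of a called window and those at the edges of canyons; further windows, low-run members and promoters were chosen after their values were seen. Alternatives changed the read minimum, positions, window size, thinning, threshold and canyon settings.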

Additional observations from a re-analysis of the deposited data

How the results depend on the processing

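The count of called Hox windows was 0 and stayed at 0 in 26 of 32 alternatives over the 4 comparisons, and in all 7 for the interaction. With a minimum of 10 points it was 1 for Treg versus Teff in PBS, 1 after OX40L-JAG1 and 2 for OX40L-JAG1 versus PBS in Teff. With positions read in the 2 libraries compared only it was 1 for Treg versus Teff after OX40L-JAG1, a window near Hoxb6 and Hoxb5 (chr11:96302001-96303000) at 45.3% against 84.7%. It was 1 for OX40L-JAG1 versus PBS in Teff with centred differences and 1 with 2-kb windows, both at Hoxc9. The cause of these shifts was not tested.

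Pooled Hox differences left their intervals in 7 of 28 alternatives. Treg minus Teff in PBS became 0.84 points at 10 reads and -1.32 as a mean of positions, and after OX40L-JAG1 it became 0.58 as a mean of positions. OX40L-JAG1 minus PBS in Teff became 2.82 points when centred on the genome difference. In Treg it became 1.72 when centred, 0.44 when thinned and 0.69 as a mean of positions, so its sign is not settled by these data.

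Canyon length in kb was moved by 15 of 32 alternatives. In PBS Teff it went from 0 to 3.56 when thinned, 7.38 at 15%, 4.77 with 10 sites and 21.7 with a 1-kb minimum. In PBS Treg it went from 0 to 10.3 on own positions, 12.5 at 15%, 4.92 with 10 sites and 22.2 with a 1-kb minimum. In OX40L-JAG1 Teff it went from 3.56 to 0 at 10 reads, 8.03 with 10 sites, 0 with a 1-kb gap and 18.0 with a 1-kb minimum. In OX40L-JAG1 Treg it went from 0 to 8.72 on own positions, 3.56 at 15% and 22.2 with a 1-kb minimum.

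The longest low runs, with alternatives chosen after seeing the data, were moved by over 1.5 times in 25 of 64. With 51 sites Hoxc ranked 1 in all 4 libraries (103 to 133 kb), and under a level of 30% it ranked 1 in 3 and 3 in OX40L-JAG1 Treg (43.0 to 69.6 kb). There Hoxa ranked 42 to 77 in 3 libraries and 11 in OX40L-JAG1 Treg. On positions read in all 4 libraries Hoxd fell to 39.8 to 43.5 kb, and Hoxc fell from 107 to 65.1 kb in PBS Treg and rose from 65.1 to 90.0 kb in OX40L-JAG1 Treg. Hoxa on the same positions measured 26.4, 26.4, 15.8 and 15.1 kb, and 15.1 to 15.8 kb in all 4 when their reads were also thinned. The cause was not tested. No analysis paired by replicate number was run, since each group holds 1 library and the sources used here do not tie libraries to animals.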
